A study of Mus musculus with 8 samples.

Results

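Long-term hematopoietic stem cells (LT-HSC) were ranked, inside each library, by the share of their transcripts that came from cytoplasmic ribosomal protein genes, each ranking was divided into 3 groups of near-equal size, and the upper and lower groups were compared. Of 499 cells with at least 2000 transcripts, 495 in 7 libraries could be ranked. They gave 162 high-share cells, 162 low-share cells and 171 cells between them. The cells were chosen by a measured value: the share of 79 score genes, 49 of the large and 30 of the small ribosomal subunit (Rplp0, Rplp1, Rplp2, Rpsa and the genes with Rpl or Rps names), in the total without Gm10800 and Gm26870. The level of those 79 genes in these groups is therefore a description with no test. Score genes were tested only where the cells were ranked on the other subunit.

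All cells came from the bone marrow of untreated male wild-type C57BL/6J mice aged 18 months and were sorted as Lin-CD150+CD48-CD34-Kit+Sca1+, either Dlk1+ or Dlk1-. Dlk1 is a surface protein of the Delta-like family. Single-cell RNA was read with mCEL-Seq2, a plate method that tags the 3′ end of each transcript with a barcode for its cell and a molecular tag (UMI), so that values count molecules. There were 4 libraries per sort. No label ties a library to an animal, and the p-values measure only the spread between these libraries.

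The ribosome is built from ribosomal RNA and a large set of proteins, most of whose mRNAs begin with a run of pyrimidines, the 5′ terminal oligopyrimidine (TOP) tract, through which the mTOR pathway controls their translation. mRNAs of several elongation factors carry the same tract. HSC are known for a low rate of protein synthesis, which rises when they enter the cell cycle.

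The tract can be read at annotated starts. A run of at least 7 C or T bases opening with C, on the transcribed strand and within 15 bases of a start annotated by RefSeq (GRCm38.p6), was found for 31 of the 59 score genes that matched the table (52.5%), against 16.4% of all 27025 genes in it and 18.9% of the 1082 matched genes among those tested below. Only bases within those 15 were counted, so a run that crosses this edge was cut there. The windows below reach 25 bases to each side of the start, with the counted part of the tract in capitals. In Rpl27a and Rpl34 the run extends beyond the capitals. The windows show the 4 score genes of the longest counted tracts and 2 genes outside the score that were higher in high-share cells. All were picked because they hold a tract. Of the named genes called below, 4 of the 10 matched higher ones (40%) and 5 of the 18 matched lower ones (27.8%) hold one.
Rpl27a (chr7:109519170-109519219, plus strand): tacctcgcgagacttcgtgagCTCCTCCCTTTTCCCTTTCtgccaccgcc
Rpl34 (chr3:130730313-130730362, minus strand): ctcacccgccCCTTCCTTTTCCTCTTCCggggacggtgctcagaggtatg
Rpl15 (chr14:18270962-18271011, minus strand): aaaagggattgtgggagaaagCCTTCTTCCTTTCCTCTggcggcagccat
Rpl14 (chr9:120571492-120571541, plus strand): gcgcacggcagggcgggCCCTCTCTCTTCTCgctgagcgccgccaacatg
Gnb2l1, now Rack1 (chr11:48800335-48800384, plus strand): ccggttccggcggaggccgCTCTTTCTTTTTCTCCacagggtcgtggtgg
Eef1a1 (chr9:78481700-78481749, minus strand): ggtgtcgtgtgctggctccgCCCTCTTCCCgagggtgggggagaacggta
Rplp0, Rpsa, Gas5, Ifitm1 and Ifitm3 have no such run in this window of the annotated start. Eef2 has a run of 7 such bases that opens 15 bases after its start. It lies at the edge of the search and was not counted, nor was a run of Rpl11 that crosses this edge. A match is a description of these letters and not a tested site.

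The libraries differed little in the middle of the share and more in its spread. The median share was 13.4%, 14.9%, 13.1% and 14.5% in Dlk1- replicates 1 to 4 and 11.9%, 15.5% and 14.2% in Dlk1+ replicates 1, 2 and 4. Dlk1+ replicate 3 held 4 cells (median 12.7%) and was too small to rank. Between cells of a library the share had an SD of 1.67 to 3.76 percentage points, while counting alone would give 0.535 to 0.729. The least spread was in Dlk1+ replicate 2, with 26 cells, and the widest in Dlk1- replicates 2 and 3.

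**Figure D1:**
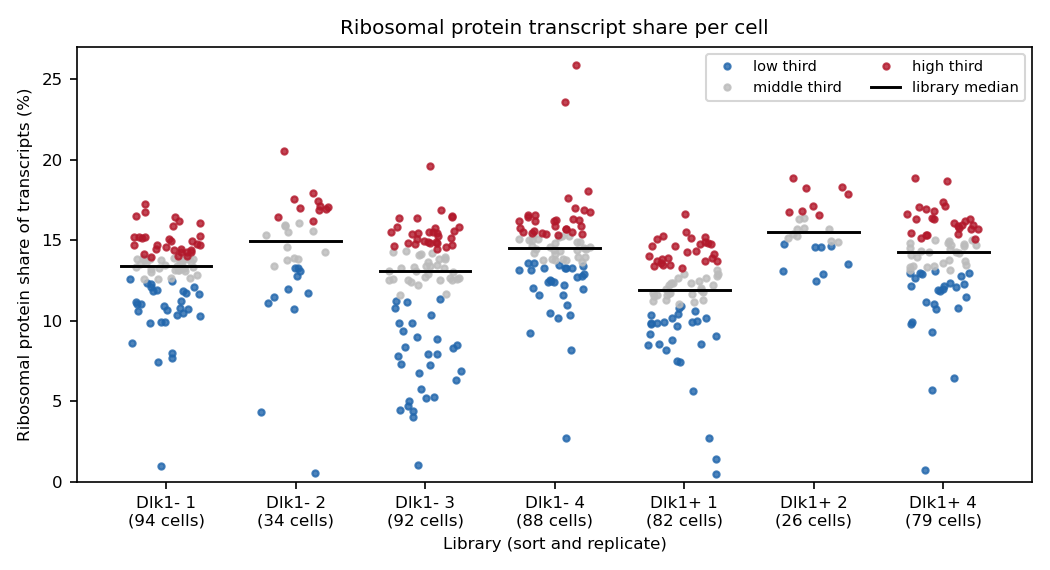
Ribosomal protein share of transcripts per cell (vertical axis, percent) in the 7 ranked libraries (horizontal axis), with high-share cells in red, low-share cells in blue, the cells between in grey and the library median as a black line. The tail is downward: 21 cells lie under 0.5 of their library's median, 10 of them in Dlk1- replicate 3.

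At the edges of the groups the cells lay close together. In Dlk1- replicate 4 the last low-share cell had 13.6% and the next cell 13.7%, and the first high-share cell 15.3% beside 15.3%. In Dlk1- replicate 3 these edges were 11.4% beside 11.6% and 14.3% beside 14.5%. The groups are ranges of a continuous measure, not cell types.

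No difference in the share between the sorts was found. Its library median was 13.90 ± 1.82% (SD, n = 3) in Dlk1+ and 13.97 ± 0.883% (SD, n = 4) in Dlk1- libraries, a difference of -0.0761 percentage points (two-sided exact permutation test, p = 0.943; the smallest p the design allows is 0.0286). On plate 5 the difference was -0.436 and on plate 6 it was 0.458 percentage points, with 1 Dlk1+ library on plate 6.

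The score genes moved as a block, which is how they were chosen. In sums over the cells of a group, 70 of the 79 were detected in every sum, and 57 of these were higher in high-share cells in all 7 libraries. The median log2 ratio of the 70 was 0.57, from 0.16 for Rpl36al to 0.80 for Rpl37, and it was 0.55 for the small and 0.61 for the large subunit. Rplp0, the stalk base of the large subunit, had 2542 ± 366 CPM (counts scaled to a common total, here the total without Gm10800 and Gm26870) in high-share and 1634 ± 491 in low-share cells (SD, n = 7 libraries). Rpsa, a small-subunit protein, had 3415 ± 404 and 2459 ± 415. Both were higher in high-share cells in 7 of 7 libraries. Of these 70, Rpl36al was higher in 3 of 7 libraries and Rpl22l1, a paralog of Rpl22, in 5 of 7. The other 9 were listed at 0 in at least 1 sum, and among them Rpl7l1 had 61.3 against 86.4 CPM, higher in 3 of 7.

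Both subunits were then set against each other. A ranking on one does not count the other's genes in the share, though they stay in the total it is divided by. Within libraries the rank correlation over cells of the 2 subunits' shares was 0.70 to 0.90, over cells that share a library and a depth. The calls that follow come from the same cells and are not separate support for that correlation. When cells were ranked on small-subunit genes alone, 37 of the 44 large-subunit genes tested (of 49) were higher in the high group and 0 lower, with a median log2 change of 0.53, while of all 1428 genes tested 9.10% were called, 5.53% higher and 3.57% lower (limma-voom, false discovery rate 0.05), and the median of all genes was -0.00458. Rplp0 then rose by 0.54 on the log2 scale (SE 0.0919, adjusted p = 0.000385). When cells were ranked on large-subunit genes alone, 27 of the 28 small-subunit genes tested (of 30) were higher and 0 lower, with a median of 0.50, against 8.11% of all 1541 genes called, 4.61% higher and 3.50% lower. Rpsa then rose by 0.41 (SE 0.0881, adjusted p = 0.00220).

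For genes outside the score, levels are CPM of the transcripts left after removing the score genes, Gm10800 and Gm26870, so a larger ribosomal share does not by itself lower them. A gene's sum can differ because more cells carry it or because each carries more, and these cannot be told apart in sums, which also weigh deep cells more. Of 1466 genes tested, 95 (6.48%) were called at a false discovery rate of 0.05 by limma-voom with library as a block. High-share cells had 39 genes higher (2.66%) and 56 lower (3.82%), so 41.1% of calls were higher. With library size as the only scaling the median of all genes moved from -0.03 to 0.10 on the log2 scale and the calls were 70 higher and 43 lower (61.9% higher). With mitochondrial genes left out of the totals they were 63 higher and 45 lower (58.3% higher). The balance of the directions therefore rests on the scaling, and changes are given relative to trimmed-mean scaling.

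Many of the calls belong to gene models that nearly copy ribosomal protein genes. Of 31 tested genes whose transcripts nearly copy such a gene (at least 85% identity over at least 50% of their length), 23 were called higher and 2 lower. Some of the copied genes are score genes, as Rpl23a is for Rpl23a-ps3. Others are not among the 79, such as Rps4x, copied by Gm15013, and Rps2, copied by Gm8225. Reads can be split between such copies and their parents, so these 23 are not taken as separate evidence. Gm15013 and Rpl23a-ps3 are among them, at log2 changes of 0.74 and 0.58. Among 1362 other named genes, 14 were higher and 24 lower.

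**Figure D2:**
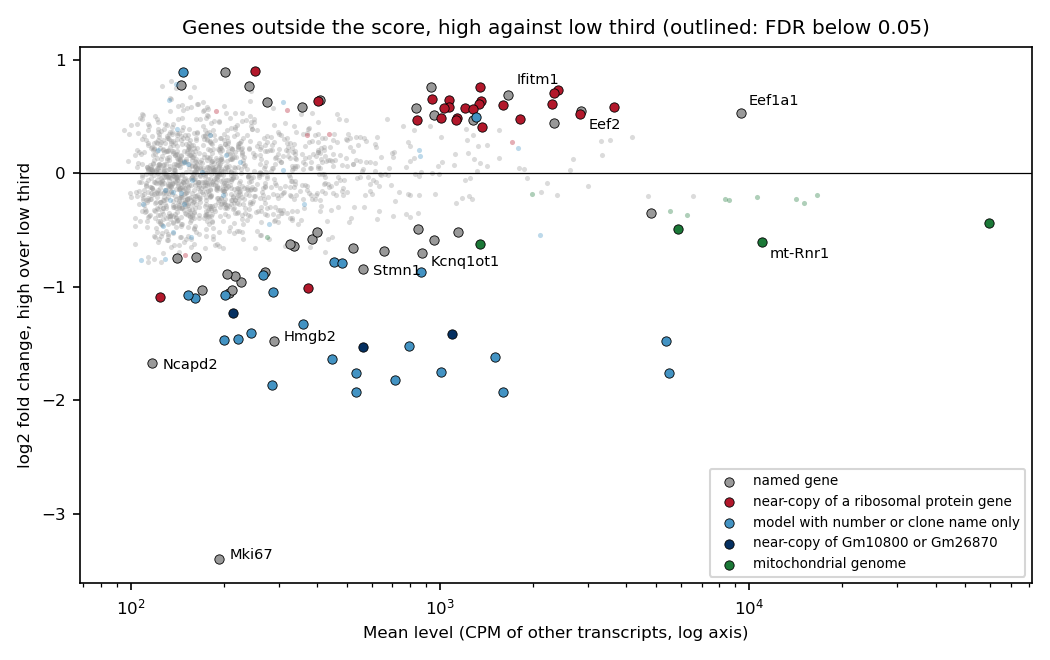
Log2 fold change between high-share and low-share cells (vertical axis) against the mean level in CPM (horizontal log axis) for 1466 genes outside the score, with called genes outlined and colours for kinds of gene model. Of the near-copies of ribosomal protein genes (red) 28 of 31 sit above 0, and clone-named models (blue) mostly below, while Mki67 lies lowest at -3.40.

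Translation elongation factors were the leading named genes above 0. Eef1a1, which brings aminoacyl-tRNA to the ribosome, ranged from 8723 through a median of 11279 to 13390 CPM in the high-share groups of the 7 libraries and from 5353 through 7301 to 9586 in the low-share groups. The ranges overlapped, but the high-share group was above in 7 of 7 libraries, and the log2 change was 0.53 (SE 0.0958, adjusted p = 0.000647). Eef2, the translocase, ranged from 2537 through 3429 to 4192 CPM against 1305 through 2257 to 3247, higher in 7 of 7 (log2 change 0.55, SE 0.103, adjusted p = 0.000805). With each cell thinned to 2000 UMIs the change of Eef2 was 0.30 and not called (adjusted p = 0.136). Eef1g, a subunit of the nucleotide exchange complex of that pathway, had 1145 ± 141 against 760 ± 194 CPM (log2 change 0.51, adjusted p = 0.0108). In thinned cells Eef1g came to 0.48 and was not called (adjusted p = 0.0523). Its partner Eef1b2 had 1823 ± 292 against 1266 ± 229 CPM and just missed the threshold (adjusted p = 0.0506), although its groups did not overlap.

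Calls among translation factors were limited to elongation factors. Of 27 tested members of the translation factor list (of 40 listed), 3 were higher and 0 lower, where 2.66% of all genes were higher. The 3 are the elongation factors above. The list's median log2 change was 0.12 against -0.03 for all genes, and 20 of the 27 lay above 0. The summed list, which includes the 3, was 30627 ± 2539 against 22544 ± 3166 CPM, higher in 7 of 7 libraries.

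Among 11 tested TOP or ribosome-associated mRNAs outside the score (of 16 listed), 3 were higher, 0 were lower and the median was 0.32. Of all genes, 2.66% were higher and 3.82% lower. Gas5, a noncoding host of small nucleolar RNAs, had 519 ± 115 against 295 ± 75.7 CPM (log2 change 0.65, adjusted p = 0.0146). It was not called in cells thinned to 2000 UMIs (0.43, adjusted p = 0.217) or without cells holding Mki67 or Top2a (0.40, adjusted p = 0.197). Gnb2l1, which encodes the ribosome-bound scaffold RACK1 and whose tract is printed above, was higher in 6 of 7 libraries (log2 change 0.44, SE 0.125, adjusted p = 0.0299). The exception was Dlk1+ replicate 2, the smallest library, at 1833 against 2972 CPM. Gnb2l1 lost its call under 10 of the 25 alternative settings. Naca, a subunit of the nascent chain complex, had 775 ± 247 against 572 ± 163 CPM (adjusted p = 0.0523). Tpt1, a TOP mRNA at 4799 ± 413 against 3565 ± 392 CPM, had an adjusted p of 0.0599.

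Most tested factors that assemble ribosomes did not follow the ribosomal proteins. Of 15 tested ribosome biogenesis genes (of 46), 1 was higher, where 2.66% of all genes were higher, and the median was -0.08. Summed with the members too low to test, the list was higher in 6 of 7 libraries, at 5407 ± 491 against 4796 ± 497 CPM. The called gene was Gltscr2, now Nop53, a nucleolar factor, at 348 ± 46.7 against 202 ± 43.8 CPM with groups that did not overlap (log2 change 0.63, adjusted p = 0.0433). It passed in 9 of 25 alternative settings. The Myc and nucleotide supply list had 0 of 15 called and a median of -0.05. Mycn, a Myc-family factor of HSC, had 472 ± 150 against 296 ± 87.2 CPM and was higher in 7 of 7 libraries without passing (log2 change 0.53, adjusted p = 0.0506).

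**Figure D3:**
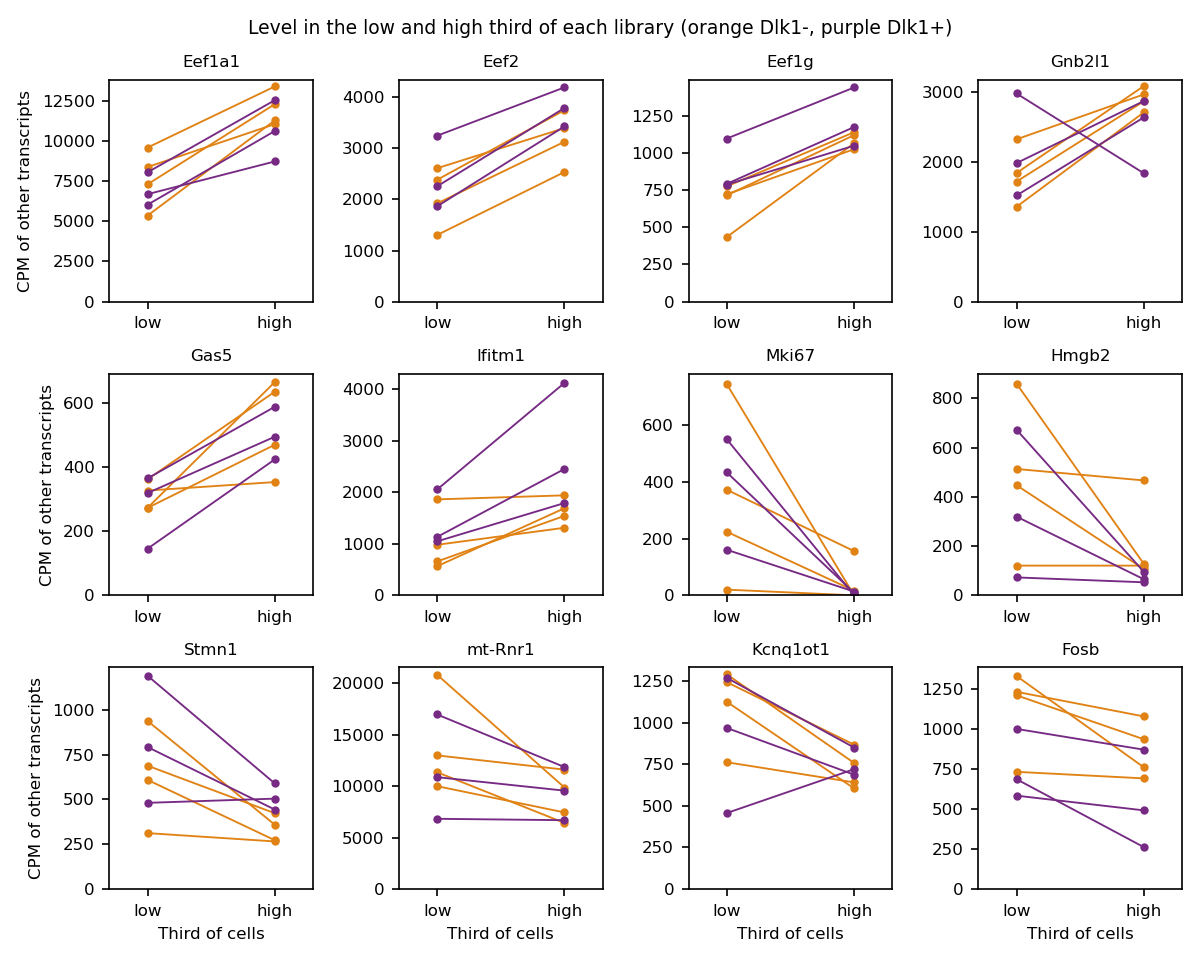
Level of 12 genes (vertical axes, CPM of transcripts outside the score) in the low-share and high-share cells of each library (lines join the 2 groups of a library, orange for Dlk1- and purple for Dlk1+). Eef1a1, Eef2 and Eef1g rise in every library, and Mki67 falls in every one.

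Among stem cell genes the calls were few. Of all genes tested, 2.66% were called higher and 6.48% were called in either direction. Ifitm1 and Ifitm3, membrane proteins of the interferon-induced family that HSC express constitutively, were the 2 called members of the 25 tested HSC identity genes, whose median was 0.10. Ifitm1 ranged from 1313 through 1793 to 4126 CPM in high-share and 566 through 1049 to 2057 CPM in low-share groups (7 of 7 libraries, log2 change 0.69, SE 0.144, adjusted p = 0.00226). In cells thinned to 2000 UMIs Ifitm1 came to 0.42 and was not called (adjusted p = 0.0834). Ifitm3 had 1008 ± 186 against 659 ± 295 CPM (7 of 7, log2 change 0.58, adjusted p = 0.00423). They were also the only 2 called of 7 tested interferon response genes, and Ifitm2 was not called (adjusted p = 0.542).

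Of 12 tested genes that rise in aged HSC, 11 lay above 0 with a median of 0.42, but 0 were called. Aldh1a1, a retinaldehyde dehydrogenase, had 342 ± 46.1 against 235 ± 104 CPM (adjusted p = 0.0599) and Selp, P-selectin, 386 ± 59.2 against 241 ± 82.4 CPM (adjusted p = 0.139). Csk, a kinase that inhibits the Src family, was higher with no overlap between groups, from 199 through 225 to 461 CPM against 74.5 through 131 to 195 (log2 change 0.89, SE 0.218, adjusted p = 0.00964). Without cells holding a UMI of Mki67 or Top2a, Csk came to 0.62 and was not called (adjusted p = 0.181). Apoe, a lipid carrier, was higher in 6 of 7 libraries (log2 change 0.47, adjusted p = 0.0323), but passed in 14 of 25 alternative settings. It lost its call without Dlk1- replicate 2, Dlk1- replicate 4 or Dlk1+ replicate 4, and came to 0.06 in thinned cells. Cells with a Dlk1 UMI were 8.98 percentage points more frequent among high-share cells, with an SD over libraries of 15.1 (5 of 7 libraries, adjusted p = 0.214, exact sign permutation).

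Genes of mitosis were lower in high-share cells. Of 12 tested G2M genes (of 58), 7 were lower, where 3.82% of all genes were lower. None was higher and 12 of 12 lay below 0, with a median of -0.77. Mki67, a protein of the mitotic chromosome surface, ranged from 0 through 8.69 to 155 CPM in high-share and 20.1 through 371 to 743 CPM in low-share groups. It was lower in 7 of 7 libraries and listed at 0 in 3 high-share groups (log2 change -3.40, SE 0.433, adjusted p = 5.45e-06). Hmgb2, a chromatin protein of dividing cells, had 148 ± 143 against 430 ± 285 CPM (7 of 7, log2 change -1.48, adjusted p = 0.00170). The condensin subunits Smc4 and Ncapd2 changed by -1.05 and -1.67, the histone chaperone of centromeres Hjurp by -1.03, and the microtubule genes Stmn1 and Tubb5 by -0.84 and -0.59. Without the cells holding a UMI of Mki67 or Top2a, Stmn1 came to -0.05 and Tubb5 to 0.0474, both without a call, and the other 5 did not pass the filter on low counts. With each cell thinned to 2000 UMIs, Hmgb2 came to -0.50 (adjusted p = 0.373), Stmn1 to -0.29 (adjusted p = 0.483) and Tubb5 to -0.25 (adjusted p = 0.398), and the other 4 did not pass that filter.

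The summed G2M list was 3463 ± 1180 CPM in high-share and 8271 ± 4283 CPM in low-share cells (SD, n = 7 libraries), lower in 7 of 7 (two-sided exact sign permutation, p = 0.0156, the smallest the design allows; adjusted over 8 measures, 0.0417). The difference was small in Dlk1- replicate 4 (2963 against 3111) and large in Dlk1- replicate 2 (2434 against 15313), where 11 cells make a group. The S phase list, 46 genes of which 4 could be tested singly with 0 called, was 1750 ± 519 against 2820 ± 769 CPM and lower in 7 of 7 (adjusted p = 0.0417). Thinned to equal depth these list differences were -3017 and -275 CPM and no longer passed (adjusted p = 0.312 for both). With any 1 of the 7 libraries left out both directions stayed. The test of 6 libraries allows no p under 0.03125, which is 0.0833 after adjustment where 3 measures reach it, so the missed threshold there says nothing about stability.

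Counted per cell, Mki67 had a UMI in 7 of 162 high-share, 13 of 171 middle and 23 of 162 low-share cells, or 4.32% (95% Wilson interval 2.11 to 8.65%), 7.60% (4.50 to 12.6%) and 14.2% (9.65 to 20.4%). At 2000 UMIs per cell the counts were 2 of 162, 9 of 170 and 17 of 161. Top2a did not rise step by step: it had a UMI in 12 of 162 high-share, 27 of 171 middle and 20 of 162 low-share cells. At 2000 UMIs its counts were 2 of 162, 14 of 170 and 15 of 161. The intervals cover counting error only. Hba-a1, a hemoglobin gene that HSC should lack, was seen in 8 of 162, 6 of 170 and 10 of 161 cells at 2000 UMIs. Background can differ between genes, and how much of the Mki67 counts is background was not tested. Cdk6, a kinase of cell cycle entry, had 276 ± 95.9 against 396 ± 110 CPM and was lower in 7 of 7 (log2 change -0.64, adjusted p = 0.0260), yet 0.0311 after thinning.

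**Figure D4:**
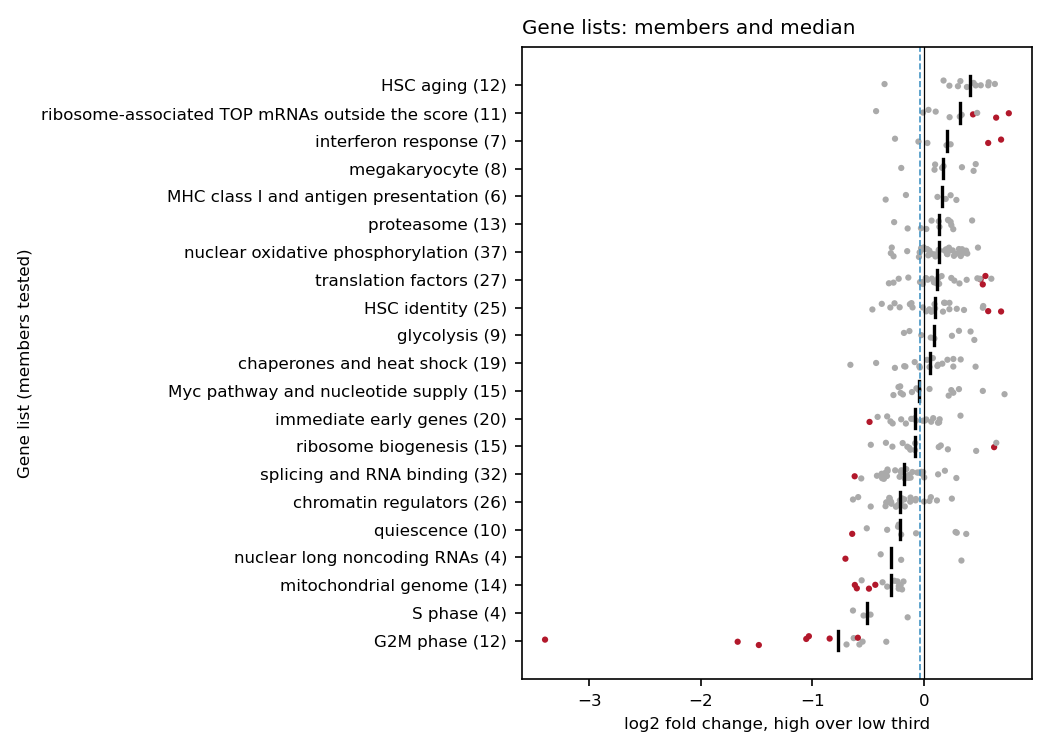
Log2 fold change of the tested members (points, red where called) and their median (black bars) for gene lists with at least 4 tested members (vertical axis, number tested in brackets); the dashed line is the median of all genes. G2M genes have the lowest median at -0.77, and HSC aging genes have the highest at 0.42 with no red point.

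Transcripts of the mitochondrial genome were lower as well. The log2 change of all 14 tested lay below 0 and 4 were called, where 3.82% of all genes were called lower. The summed list was nevertheless higher in high-share cells in 2 of 7 libraries. The ribosomal RNAs mt-Rnr1 and mt-Rnr2 changed by -0.60 and -0.43, and mt-Nd5 and mt-Nd4l, subunits of complex I, by -0.49 and -0.62. mt-Nd5 was lower in 7 of 7 libraries, mt-Rnr2 in 6 and mt-Nd4l in 4. mt-Nd4l and mt-Rnr2 lost their calls without Dlk1- replicate 1 or Dlk1+ replicate 1, mt-Nd4l also without Dlk1- replicate 3, and mt-Rnr2 also without Dlk1- replicate 2 or 4. mt-Rnr1 ranged from 6422 through 9559 to 11847 CPM against 6825 through 11343 to 20803 and was lower in 7 of 7 libraries (SE 0.127, adjusted p = 0.00248). The median per-cell mitochondrial share was 14.9 ± 1.45% in high-share and 18.1 ± 4.96% in low-share cells, lower in 7 of 7 (adjusted p = 0.0417, exact sign permutation), though Dlk1- replicate 2 (14.1 against 14.1%) and Dlk1+ replicate 2 (12.5 against 12.6%) hardly differed. Nuclear oxidative phosphorylation genes had 0 of 37 called and a median of 0.13.

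Models known only by a number or clone name went the same way as the mitochondrial genes. Of 56 tested, 23 were lower and 2 higher, with a median of -0.49, where 3.82% of all genes were lower and 2.66% higher. Gm21962 ranged from 156 through 410 to 1019 CPM against 594 through 1151 to 3160 (7 of 7 libraries lower, log2 change -1.75, SE 0.179, adjusted p = 6.73e-07), and Gm37158 changed by -1.92. The 3 tested near-copies of Gm10800 or Gm26870 were called lower, with a median of -1.41. The per-cell share of Gm10800 and Gm26870, removed from all totals, was 20.4 ± 9.33% against 24.5 ± 10.0% and lower in 6 of 7 (adjusted p = 0.214). What these models measure is not given in the sources used here.

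Nuclear RNA showed single calls, where 3.82% of all genes were lower. Kcnq1ot1, a long noncoding RNA that stays at its locus, had 732 ± 99.6 against 1016 ± 311 CPM and was lower in 6 of 7 libraries (log2 change -0.70, adjusted p = 0.00128). Malat1 was 0.609 ± 0.159% of other transcripts against 0.779 ± 0.257% (6 of 7 lower, adjusted p = 0.0625). Of 32 splicing and RNA-binding genes, 1 was lower (Luc7l2, log2 change -0.62, adjusted p = 0.0469) and the median was -0.18, and of 26 chromatin regulators 0 were called with a median of -0.21. Fosb, an immediate early gene, was lower in 7 of 7 (log2 change -0.49, adjusted p = 0.0332) and the only 1 called of 20 such genes. Fosb passed in 12 and Luc7l2 in 4 of 25 alternative settings, and both lost their calls with library size as the only scaling.

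**Figure D5:**
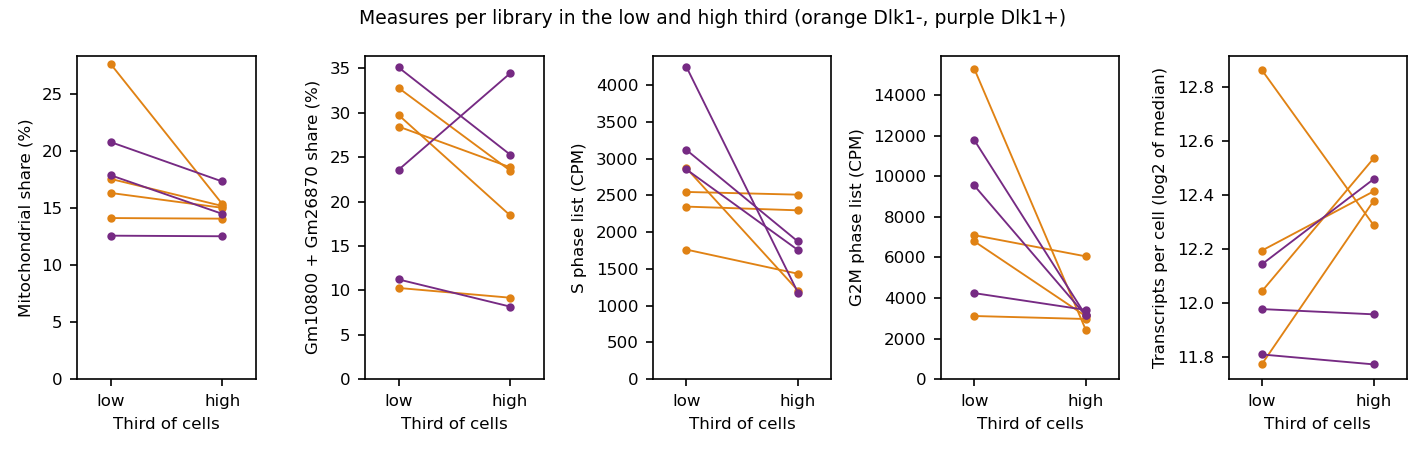
Measures per library in low-share and high-share cells (lines join the groups of a library, orange Dlk1-, purple Dlk1+): mitochondrial share, share of Gm10800 and Gm26870, summed S and G2M lists, and log2 of the median transcripts per cell. The mitochondrial share and both cell cycle lists fall in 7 of 7 libraries, and depth goes both ways.

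Depth and content of the cells went with the groups in part. Median transcripts per cell were higher in high-share cells in 4 of 7 libraries, by 0.14 on the log2 scale (adjusted p = 0.406), and the rank correlation of share and transcripts over cells was -0.153 to 0.405. The 21 cells with less than 0.5 of their library's median share were all low-share cells. They had a median ribosomal share of 4.38%, a mitochondrial share of 35.3% and a Gm10800 and Gm26870 share of 49.4%. The other 141 low-share cells had a mitochondrial share of 17.8% and the high-share cells 15.1%. Without these 21 cells 87 genes were called, 49 higher and 38 lower, with 72 of the 95 among them. Their part in the mitochondrial result was not tested beyond this, and the mitochondrial difference was then -2.78 points (adjusted p = 0.0938).

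Markers of other cells differed in level. Summed megakaryocyte markers were 2383 to 3228 CPM in high-share and 1821 to 2649 CPM in low-share groups, higher in 7 of 7 libraries, with 2 of 22 listed at 0 throughout. Erythroid markers were 2411 to 3406 and 1689 to 3474 CPM, higher in 6 of 7, with 3 of 17 at 0. Endothelial markers were 512 to 813 and 437 to 1005 CPM, higher in 5 of 7. B cell markers were 24.8 to 65.4 CPM in high-share and 0 to 87.4 CPM in low-share groups, with 1 listed at 0 throughout. Stromal markers were 0 to 65.4 and 10.9 to 366 CPM, and T and NK cell markers 0 to 196 and 24.8 to 457 CPM. Myeloid markers were 520 to 852 CPM in high-share groups and 365 to 574 CPM in 6 of the low-share groups, but 25922 CPM in that of Dlk1+ replicate 4. Without that library 78 genes were called, 34 higher and 44 lower, with 72 of the 95 among them. The part of the other markers in the results was not tested.

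The difference between the groups was compared between sorts by an interaction term, which called 0 of 1466 genes (0%) in limma-voom, with 68 at an unadjusted p under 0.05. Without Dlk1+ replicate 2, 3 genes were called, the clone-named models Gm37746 and Gm37158 and the Gm26870 near-copy Gm10715, all with a stronger fall in Dlk1+ cells. These data hold 3 Dlk1+ libraries, and a missed call does not show that the sorts respond alike.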

How the data were processed

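The authors deposited 1 table of transcript values per library, with a column for each of 192 barcodes. Per the submitters' processing notes BWA 0.6.2-r126 and the mm10 build were used; read filters, annotation and strand are not given in the sources used here. Inverting the usual correction for collisions among 4096 UMIs gave whole numbers (largest distance 3.64e-12). Only the barcodes of a library's own sort were used, without 10 barcodes of the Dlk1+ tables. Libraries of a sort reuse barcode numbers (96 in Dlk1-, 80 in Dlk1+ kept in 2 or more libraries) and none is shared between sorts. Doublets were not called.

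Values were summed per library and group (14 sums of 15285 to 125232 transcripts). Genes reaching the CPM of 10 counts in the median sum, in at least 7 sums, and at least 15 counts in all were tested with limma-voom (limma 3.58.1, R 4.3.3) with library as a term, trimmed-mean scaling and Benjamini-Hochberg adjustment. The planned edgeR and DESeq2 tests were not run, since no automatic check of the tables' unit was possible. Measures per library were tested by exact sign permutation. On simulated sums of the 1466 genes, 16% of 1.5-fold, 56% of 2-fold and 98% of 4-fold changes were recovered, with 1 false call. All genes were given a dispersion of 0.1, which was not estimated from these data, so recovery here can differ.

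Named genes are the 12 of lowest p in each direction among calls of one direction in all libraries, and up to 4 members of each list with the lowest p; other called genes were picked with their values in view, as were the genes whose start sequences are shown. The members and lists were chosen with earlier results of these data known. Some results are not reported here.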

Additional observations from a re-analysis of the deposited data

Results flagged for a closer look

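Of 35 groups of library values examined, 6 held 1 library far from the rest, where chance gives about 1 in 20. In Dlk1- replicate 3 the mitochondrial share was lower in high-share cells by -12.3 percentage points, against -3.46 in the next library. That library holds 10 of the 21 cells of very low share. In Dlk1- replicate 2 the near-copy Rpl36-ps3 differed by 1129 CPM, against 615 in the next. Dlk1+ replicate 1 stood apart for 3 clone-named models and the near-copy of Gm26870 named last: Gm37158 by -6108 CPM (next -1983), Gm26905 by -1175 (next -245), RP23-341H2.4 by -1007 (next -226) and Gm10719 by -482 (next -165).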

How the results depend on the processing

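The count of 95 called genes was 201 without a filter on low counts (57 higher, 144 lower, of 16789 tested), 39 with no replicate block, and, in alternatives chosen after seeing the data, 50 with limma-trend and 51 with near-copies left out of the sums (11 higher, 40 lower). Leaving out 1 library gave 77 to 109 calls. Between sorts, the replicate block left 0 calls for the interaction and a share difference of -0.373 points. Same-numbered libraries deviated together with correlations of 0.0905, 0.0273 and 0.119, so the numbers were not taken to pair them. Leaving out 1 library gave 0 to 3 interaction calls.

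The difference in median share between sorts changed sign to 0.0101 in thinned cells and 0.113 without mitochondrial genes, and ranged from -0.889 to 0.911 with 1 library left out. The mitochondrial, S and G2M differences lost their calls in thinned cells (-3.70, -275, -3017), with all cells above and below the median share (-2.49, -148, -3907) and without cells of very low share (-2.78, -1085, -5468). With 1 library left out they ranged from -3.81 to -1.77, -1243 to -737 and -5585 to -3463. As 6 libraries allow no exact p under 0.03125, their adjusted p is no measure of stability.

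Sign changes among named genes, on the log2 scale, were as follows, and of these genes Cdk6, Tubb5 and Tuba1a were called. In thinned cells they were Psme1 -0.180, Meg3 -0.142, Cdk6 0.0311, H2-D1 -0.0466 and Prtn3 -0.0560. With all cells above and below the median share they were Meg3 -0.0635, Mcm6 0.117, Mcm7 0.00453 and Tie1 0.0149. With the small-subunit score they were Meg3 -0.153 and Mcm7 0.00438. Without cells carrying Mki67 or Top2a they were Meg3 -0.101, H2-D1 -0.0530, Prtn3 -0.00396, Tubb5 0.0474 and Tuba1a 0.241. Tie1 came to 0.0578 with library size alone, 0.00121 without a filter, 0.172 at 3000 transcripts and 0.0771 without mitochondrial genes. With 1 library left out the ranges were -0.553 to 0.0218 for Btg2, -0.0208 to 0.585 for Meg3, -0.348 to 0.00894 for Mcm7, -0.103 to 0.395 for Prtn3 and -0.175 to 0.0130 for Tie1. The causes were not tested. At this depth only large changes could be found in genes of low level.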
